A study of Canis lupus familiaris with 6 samples.

Results

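The ERBB system measured here comprised 10 genes, 6 ligands (NRG1, EREG, TGFA, HBEGF, AREG and BTC) and 4 receptors (EGFR, ERBB2, ERBB3 and ERBB4), out of 15115 genes with a probe set of a single gene symbol on an Affymetrix canine array. Members were found as every probe set whose only symbol in the platform annotation was one of these names, which gave 19 probe sets, and the brightest over all arrays stood for the gene. Expression was measured in cultured primary lines of osteosarcoma, a malignant tumour of bone, from dogs, with 1 array per line. The tumorigenic lines UWKOS1, UWKOS3 and UWKOS7 formed tumours when transplanted into mice (n = 3), and the non-tumorigenic lines UWKOS2, UWKOS6 and UWKOS8 did not (n = 3). All 6 lines were handled alike in medium with 10% serum, and their RNA came from the culture dish rather than from a transplant. The labels used here give no donor, breed, age or passage, and no line was arrayed more than once. The comparison addresses how lines able to form tumours in mice differ in their transcripts from lines that are not, and every p-value measures the spread between these lines.

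ERBB receptors are cell-surface tyrosine kinases that act in pairs. EGFR binds TGFA, AREG, EREG, HBEGF and BTC; ERBB3 and ERBB4 bind neuregulins such as NRG1; ERBB4 also binds EREG, HBEGF and BTC. ERBB2 has no known ligand and serves as the preferred partner, while ERBB3 has a weak kinase and signals through its partner, chiefly to PI3K. The ligands are made as membrane-bound precursors that proteases release from the cell surface. EGFR protein has been reported in osteosarcoma of dogs and people, and neuregulin with its receptors is best known from nerve sheath, heart and breast.

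Values are log2 signals, a difference is the tumorigenic mean minus the non-tumorigenic mean of those signals, and array medians lay between 6.03 and 6.05. Probe sets with a mean under 6.07, the median over all non-control probe sets, were treated as dim, and levels under that value are not known to lie above background. The brightest probe sets of NRG1, EREG, TGFA, EGFR and ERBB2 lay above it, and those of HBEGF, AREG, BTC, ERBB3 and ERBB4 lay below it. Signals of different probe sets share no common scale, so levels were compared across lines and not across genes. The osteoblast collagen COL1A1 was bright in all lines, at 12.28 to 13.10 in tumorigenic and 13.07 to 13.51 in non-tumorigenic lines, whereas ALPL and IBSP, other osteoblast markers, averaged below the dim limit and RUNX2 lay close to it (5.84 to 6.52 over the lines). The mean signal of the 9 measured osteoblast markers was 7.49 to 8.29 in tumorigenic and 8.41 to 8.47 in non-tumorigenic lines, without overlap. Of these markers OMD, osteomodulin, had the widest difference, at -4.53 (limma adjusted p = 0.0261), and so weighed most in that mean. COL1A2 (-0.93) and SPARC (-0.88) did not overlap but did not pass. COL1A1 (-0.55), BGLAP (-0.44) and ALPL (-0.24) were lower with overlap. In the other direction IBSP (0.43, dim) did not overlap, while SPP1 (2.26, dim on average) and RUNX2 (0.22) overlapped. The mean thus combines markers of opposite direction. The ratio of 3′ to 5′ signal of GAPDH, a measure of transcript integrity, was 0.66, 0.64 and 0.84 in UWKOS1, UWKOS3 and UWKOS7, against 0.78, 1.00 and 1.44 in UWKOS2, UWKOS6 and UWKOS8 (log2 units). UWKOS6 and UWKOS8 thus had the highest ratios. The mean signal of markers of other cell types was 5.11 to 5.33 in tumorigenic and 5.28 to 5.45 in non-tumorigenic lines for leukocytes, 5.96 to 6.19 and 5.75 to 5.87 for endothelium, and 5.85 to 6.89 and 7.08 to 7.35 for skeletal and smooth muscle. The groups did not overlap for endothelium and muscle, but both means combine markers of opposite direction. For muscle ACTG2 (-3.19) and CNN1 (-1.92, yet highest in UWKOS7) weighed most. MYOG (-0.16) and MYH11 (-0.10) were lower, and DES (0.40) and MYOD1 (0.04) were higher. For endothelium KDR (1.11), PECAM1 (0.84, dim) and VWF (0.05, dim) were higher. TEK (-0.25, dim), TIE1 (-0.10) and CDH5 (-0.04) were lower. The part of these and the osteoblast markers in the results was not tested.

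NRG1 was the member that had brought this system to attention, because its signal differed between these same groups, so its levels are given as a description without a test. On its brightest probe set NRG1 had 8.37 in UWKOS1, 10.41 in UWKOS3 and 10.12 in UWKOS7, against 6.94 in UWKOS2, 5.71 in UWKOS6 and 5.61 in UWKOS8. All tumorigenic lines lay above all non-tumorigenic lines, and the gap between the groups was 1.43. The means were 9.63 ± 1.10 in tumorigenic and 6.09 ± 0.74 in non-tumorigenic lines (SD, n = 3 each), a difference of 3.55 or 11.7-fold. In descending order of level, UWKOS3 and UWKOS7 differed by less than the pooled within-group SD of 0.94, as did UWKOS6 and UWKOS8, while UWKOS1 and UWKOS2 stood apart from their neighbours by more than that SD. In cultured lines a lower share of expressing cells and less transcript per cell cannot be told apart from such values.

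The other probe sets of NRG1 placed the groups in the same direction with narrower gaps. The second gave 6.16, 8.96 and 9.28 in UWKOS1, UWKOS3 and UWKOS7, against 6.01, 4.58 and 4.99 in UWKOS2, UWKOS6 and UWKOS8, a difference of 2.94. There UWKOS1 lay only 0.15 above UWKOS2, so this probe set separated UWKOS3 and UWKOS7 from the rest more clearly than it separated the groups. Every non-tumorigenic line lay under the dim limit on this probe set. The third, dim throughout, gave 3.62, 5.47 and 5.03 in UWKOS1, UWKOS3 and UWKOS7, against 3.17, 2.66 and 3.37 in UWKOS2, UWKOS6 and UWKOS8, a difference of 1.64. Pearson's r between pairs of these probe sets over the 6 lines ran from 0.93 to 0.96, values that share their arrays. NRG1 has many transcripts that differ in their ends, and which of them each probe set detects was not analysed here.

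**Figure D1:**
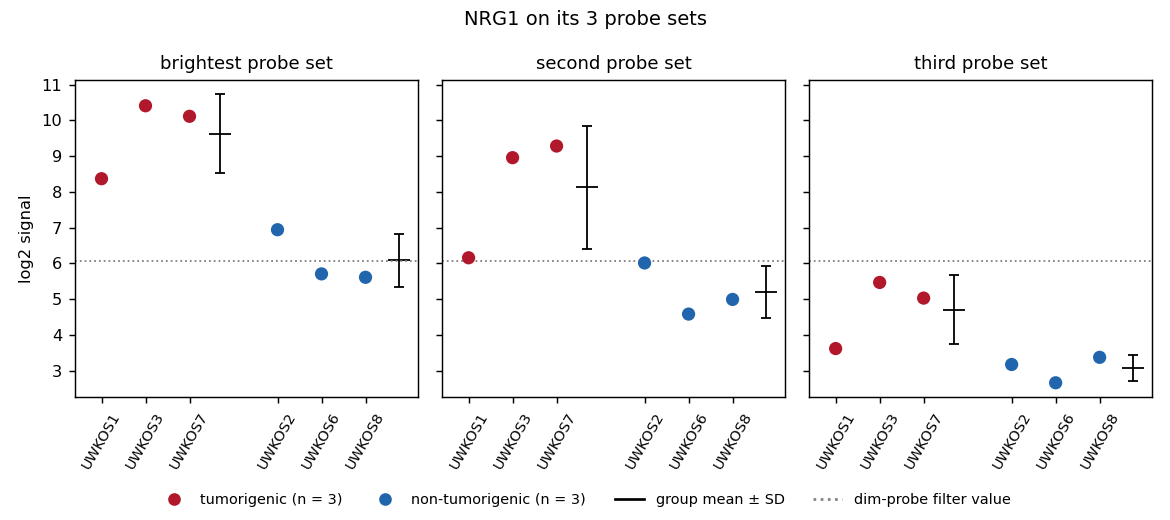
NRG1 log2 signal in each line on its 3 probe sets, from brightest to dimmest; points are single arrays, dashes with bars are group means ± SD (n = 3), and the dotted line is the dim-probe value of 6.07. UWKOS3 and UWKOS7 are high on every probe set, and UWKOS1 lies 0.15 above UWKOS2 on the second.

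Since the groups did not overlap, leaving lines out could not turn the direction of NRG1, and only the size of its difference is given. That difference ran from 3.16 to 4.18 when each line was left out in turn. Without both UWKOS6 and UWKOS8 it was 2.69, where UWKOS2 alone stood for the non-tumorigenic lines. With the GAPDH ratio as a covariate it was 3.08. In the limma fit over all genes NRG1 passed at an adjusted p under 0.05, as 1 of the 5 members bright enough to be tested, in a comparison where 12.1% of 9145 tested genes passed (7.5% higher and 4.63% lower). Since NRG1 was picked from this contrast, nothing is read from that count. Over the 6 lines Pearson's r between NRG1 and the other members ran from -0.76 (ERBB4) to 0.70 (EGFR), again on shared arrays. The 6 genes whose pattern over the 6 lines was most like that of NRG1 were TMEM183A, AIMP1, PPP1R14B, APOOL, UTP4 and SNX8, with Pearson's r of 0.990 to 0.993. A profile of this shape was common, since 474 of 9144 other tested genes had an r above 0.9 with NRG1. These 6 genes differed by less than NRG1: UTP4, with the widest difference of the 6, averaged 11.80 in tumorigenic and 10.34 in non-tumorigenic lines.

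EREG, which encodes epiregulin, a ligand of EGFR and ERBB4, varied more between lines than any other member. It had 12.06 in UWKOS1, 8.97 in UWKOS3 and 4.90 in UWKOS7, against 5.66 in UWKOS2, 6.25 in UWKOS6 and 6.60 in UWKOS8. UWKOS1 and UWKOS3 lay above every non-tumorigenic line and UWKOS7 below all of them, so the groups overlapped. The gap of 3.09 between UWKOS1 and UWKOS3 exceeded the pooled within-group SD of 2.56, and no other gap between neighbouring lines did. Its SD over the tumorigenic lines, 3.59, was exceeded by 17 of 15115 genes, and its range of 7.16 over all lines was wider than that of 99.8% of genes. The group difference of 2.48 rested on UWKOS1 and UWKOS7: it was 0.77 without UWKOS1 and 4.35 without UWKOS7. EREG was measured by 1 probe set.

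The genes next to EREG did not share its pattern. In the dog assembly UU_Cfam_GSD_1.0 the nearest protein-coding neighbours of EREG are EPGN on one side and AREG on the other, both encoding ligands of EGFR. AREG, amphiregulin, had 4.47, 4.05 and 4.30 in UWKOS1, UWKOS3 and UWKOS7, against 3.95, 4.18 and 4.07 in UWKOS2, UWKOS6 and UWKOS8. All these levels were dim, and their range of 0.51 was narrower than the median range of 0.75 over all genes. EPGN, epigen, ranged from 3.26 to 3.44 in tumorigenic and from 3.24 to 3.50 in non-tumorigenic lines. A dim probe set can fail to report a transcript, so these values do not show that AREG or EPGN was absent where EREG was high.

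Some epithelial markers were, like EREG, highest in UWKOS1, which was the highest line for 3 of 8. The mean signal of the 8 measured epithelial markers was 6.22 in UWKOS1, 5.44 in UWKOS3 and 4.95 in UWKOS7, against 4.56, 4.71 and 4.70 in UWKOS2, UWKOS6 and UWKOS8. EPCAM, an epithelial adhesion protein, had 7.65 in UWKOS1, against 3.46 to 4.001 in the other lines. KRT8, a simple-epithelial keratin, had 6.49 in UWKOS1 and 6.64 in UWKOS3, against 2.69 to 3.04 in the other lines. The splicing regulator ESRP1 was also highest in UWKOS1, at 6.90, and KRT18 had 7.44 there, while CDH1, the epithelial cadherin, stayed between 3.95 and 4.26 in every line. KRT7, the epithelial marker that passed limma (difference 0.81, adjusted p = 0.0445), did not follow EREG, with 6.65, 6.94 and 7.08 in UWKOS1, UWKOS3 and UWKOS7, against 6.19, 6.21 and 5.84 in UWKOS2, UWKOS6 and UWKOS8. GRHL2 was lowest in UWKOS1, at 6.16, and CLDN4 was dim throughout. The part of these markers in the EREG values was not tested.

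Of the remaining ligands HBEGF, heparin-binding EGF-like growth factor, had 4.35, 4.97 and 6.48 in UWKOS1, UWKOS3 and UWKOS7, against 5.003, 5.20 and 5.02 in UWKOS2, UWKOS6 and UWKOS8. UWKOS7 alone lay above the dim limit, and UWKOS1 was the lowest line, so the difference of 0.20 turned to -0.41 without UWKOS7.

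TGFA, transforming growth factor alpha, was nearly level. It had 8.08, 7.93 and 8.12 in UWKOS1, UWKOS3 and UWKOS7, against 8.20, 8.39 and 8.12 in UWKOS2, UWKOS6 and UWKOS8, a difference of -0.20 in which the groups were parted by 0.0041. Its other 2 probe sets differed by -0.30 and -0.07 and overlapped. BTC, betacellulin, lay between 4.33 and 4.72 in tumorigenic and between 4.34 and 4.58 in non-tumorigenic lines, with a difference of 0.0039. Of the further ligands of the family EGF, NRG2 and NRG3 had dim probe sets, at 4.11 to 4.70, 5.02 to 5.37 and 4.52 to 5.19 over the 6 lines.

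**Figure D2:**
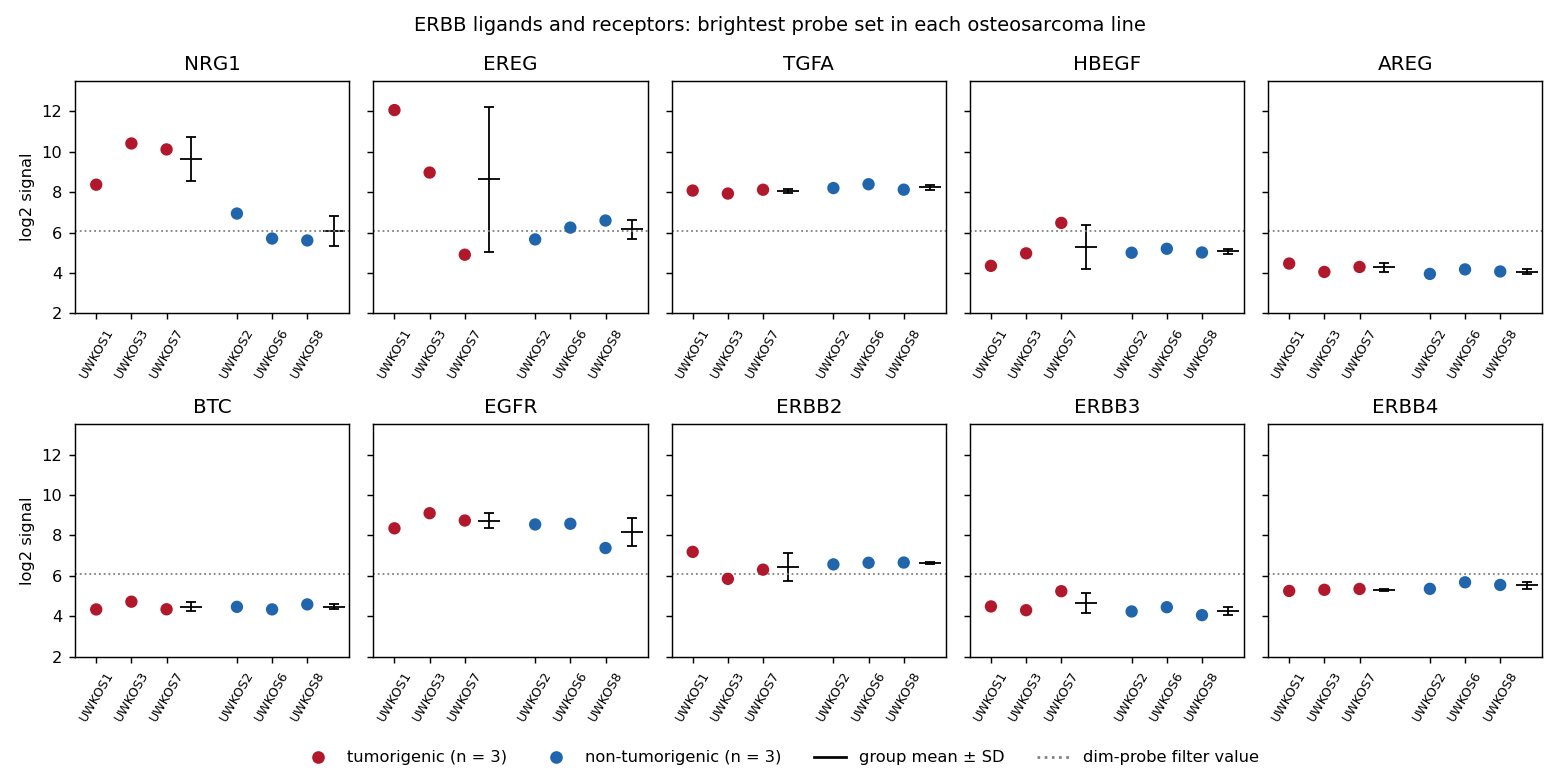
Log2 signal of the brightest probe set of each ERBB ligand and receptor in each line; points are single arrays, dashes with bars are group means ± SD (n = 3), and the dotted line is the dim-probe value of 6.07. NRG1 separates the groups by 1.43, EREG runs from 4.90 to 12.06 among the tumorigenic lines, and the widest range of a receptor is 1.72 (EGFR).

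EGFR lay above the dim limit in every line. It had 8.35, 9.10 and 8.73 in UWKOS1, UWKOS3 and UWKOS7, against 8.54, 8.57 and 7.37 in UWKOS2, UWKOS6 and UWKOS8. UWKOS8 was the low line and the other 5 overlapped, giving means of 8.73 ± 0.37 in tumorigenic and 8.16 ± 0.68 in non-tumorigenic lines (SD, n = 3 each). The difference of 0.56 was 0.17 without UWKOS8 and -0.06 with the GAPDH ratio, which was highest in UWKOS8, as a covariate. The second EGFR probe set was dim, did not show UWKOS8 low (5.05) and differed by 0.08.

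ERBB2, the ligandless partner, was close to the dim limit. It had 7.18, 5.85 and 6.30 in UWKOS1, UWKOS3 and UWKOS7, against 6.56, 6.64 and 6.66 in UWKOS2, UWKOS6 and UWKOS8. The tumorigenic lines lay on both sides of the non-tumorigenic ones, whose SD was 0.05 against 0.68 in the tumorigenic lines. UWKOS1, the line with the highest EREG signal, was also the highest for ERBB2, and UWKOS3 was the lowest. The group difference was -0.18, and it was -0.55 without UWKOS1 and 0.12 without UWKOS3.

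The receptors that bind NRG1 directly were dim in every line. ERBB3 had 4.48, 4.30 and 5.24 in UWKOS1, UWKOS3 and UWKOS7, against 4.23, 4.44 and 4.05 in UWKOS2, UWKOS6 and UWKOS8, with UWKOS7 the highest. ERBB4 had 5.25, 5.31 and 5.35 in UWKOS1, UWKOS3 and UWKOS7, against 5.35, 5.68 and 5.55 in UWKOS2, UWKOS6 and UWKOS8, with the groups parted by 0.0061; the difference of -0.22 was -0.05 without UWKOS6 and UWKOS8. The other 4 probe sets of ERBB4 overlapped between the groups and differed by -0.14 to 0.02. With no detection calls in the table, dim signal limits what can be said: a receptor present at a low level and one that was absent would look alike here. The Schwann cell lineage, where NRG1 and ERBB3 signalling is best known, gave dim probe sets for S100B, CDH19, GFAP, NGFR and EGR2, while SOX10 lay between 6.36 and 6.53 and PMP22, a myelin gene that other cells also express, between 10.85 and 12.23 in all lines.

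Set against all genes, some members varied widely and others little. NRG1 and EREG ranged more widely over the lines than 98.7% and 99.8% of genes, and HBEGF more than 90.2%, with EGFR, ERBB2 and ERBB3 between 70.8% and 85.0%. TGFA, AREG, BTC and ERBB4 ranged less than the median gene. The groups did not overlap for 3 members, NRG1 (higher) and TGFA and ERBB4 (lower, by margins under 0.01), where 31.1% of all 15115 genes did not overlap (16% higher and 15.1% lower). At the level of probe sets the groups did not overlap for 5 of 19, namely all of NRG1 and 1 each of TGFA and ERBB4, where 29.2% of all probe sets did not. Both shares were close to those of genes at large.

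**Figure D3:**
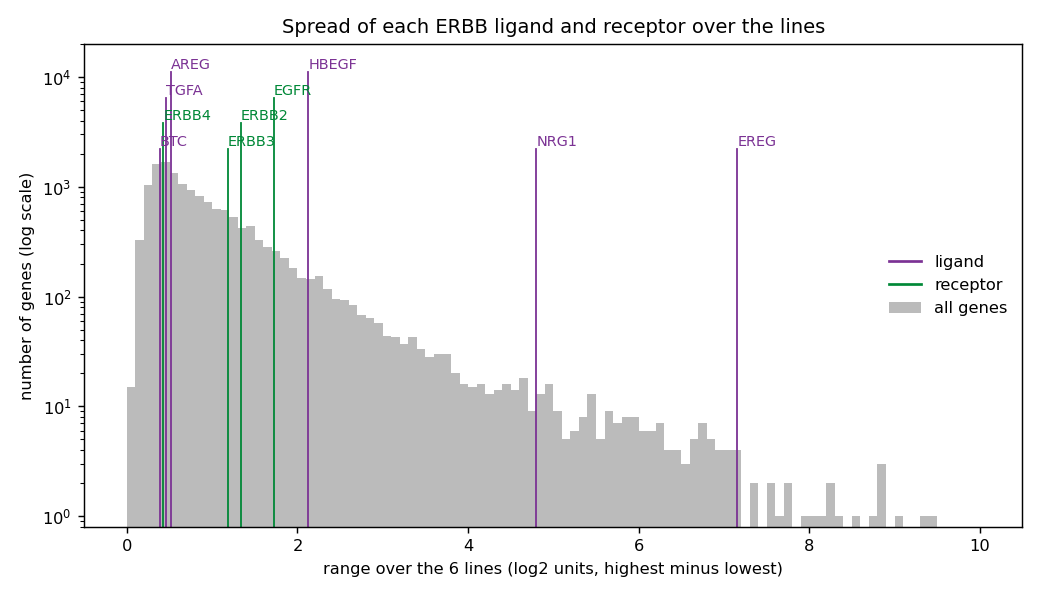
Histogram of the range over the 6 lines (log2 units) for 15115 genes, with vertical lines at the 6 ligands and the 4 receptors; the height axis is on a log scale. EREG at 7.16 and NRG1 at 4.80 lie in the far tail, while BTC, ERBB4, TGFA and AREG lie below the median of 0.75.

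The genes around the receptors were followed with 9 lists of the pathway, holding 164 genes outside the members, of which 145 had a probe set and 105 passed the filter. In the limma fit 11 of these passed, 5 higher and 6 lower in the tumorigenic lines, or 10.5%, where 12.1% of all tested genes passed. The share was thus near that of genes at large and does not set the pathway apart. With arrays centred on hybridization controls the split was 10 higher and 4 lower of 105. Over all 9145 tested genes it was then 1146 higher and 304 lower (15.9% passing), so the shift upwards was not particular to the pathway. The median difference was -0.04 over these genes and 0.03 over all tested genes. Adjusted p-values below are from limma with Benjamini-Hochberg adjustment over all 9145 genes. Counts for single lists stand against the same 12.1% of all tested genes. The lists are short and were not tested as sets, so no step of the pathway is read as changed from them.

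At the step of ligand release, 2 of 9 tested genes fell and 0 rose. ADAM15, a metalloprotease of the family that sheds membrane proteins, averaged 7.34 ± 0.40 in tumorigenic and 9.14 ± 0.45 in non-tumorigenic lines (SD, n = 3 each), a difference of -1.80 (adjusted p = 0.0228), and a second probe set gave -1.32. RHBDF1, an inactive rhomboid that escorts the sheddase ADAM17 to the cell surface, averaged 9.28 ± 0.45 in tumorigenic and 10.83 ± 0.27 in non-tumorigenic lines (SD, n = 3 each; limma adjusted p = 0.0240), although its other 2 probe sets differed by -0.92 and 0.03. ADAM17 itself had no probe set that carried its symbol alone.

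Among receptor partners and chaperones 3 of 8 tested genes rose and 1 fell. MUC1, a transmembrane mucin that associates with ERBB receptors, had 8.41, 7.59 and 7.52 in UWKOS1, UWKOS3 and UWKOS7, against 6.91, 6.05 and 6.38 in UWKOS2, UWKOS6 and UWKOS8 (adjusted p = 0.0443). MUC1 is itself an epithelial gene, and like EPCAM, KRT18 and ESRP1 it was highest in UWKOS1; their part in this difference was not tested. HSP90AB1, the chaperone of which ERBB2 is a well-known client, rose by 0.74 (adjusted p = 0.0274), and PA2G4, an ERBB3-binding protein, rose by 0.89 (adjusted p = 0.0454). FLOT2, a flotillin of membrane microdomains, averaged 9.72 ± 0.28 in tumorigenic and 11.01 ± 0.33 in non-tumorigenic lines (SD, n = 3 each; adjusted p = 0.0257), and its other probe sets differed by -1.39 and -0.74.

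Of 18 tested adaptors and proximal effectors 0 passed with limma, and 5 had an unadjusted p under 0.05. Over all 105 tested pathway genes 37 had such a p. The share over all tested genes was not counted, so nothing is read from counts by unadjusted p. The smallest p-values belonged to PLCG2, a phospholipase, with a difference of 1.10 (adjusted p = 0.0601), and STAT3, a transcription factor, with -1.03 (adjusted p = 0.0825). In the RAS-MAPK cascade 1 of 15 tested genes rose and 1 fell. RPS6KA1, a kinase activated by ERK, rose by 1.41 (adjusted p = 0.0457), and RRAS, a RAS-related GTPase, fell by 0.82 (adjusted p = 0.0371).

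In the PI3K branch, the main route of ERBB3, 2 of 15 tested genes fell and 0 rose. PIK3R1, a regulatory subunit of PI3K, had 6.39, 7.13 and 6.98 in UWKOS1, UWKOS3 and UWKOS7, against 8.16, 9.86 and 9.96 in UWKOS2, UWKOS6 and UWKOS8, a difference of -2.50 (adjusted p = 0.0325). UWKOS2 lay nearest to the tumorigenic lines, as it did for NRG1 in the opposite direction, and the difference was -1.34 without UWKOS6 and UWKOS8 (adjusted p = 0.356). Its other 2 probe sets were dim and differed by -0.63 and -0.34. TSC2, a brake on mTOR, fell by 0.79 (adjusted p = 0.0400).

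Of 16 tested genes that restrain or degrade the receptors 0 passed with limma, and 5 had an unadjusted p under 0.05, against 37 of all 105 tested pathway genes. As for the adaptors, nothing is read from counts by unadjusted p. ERRFI1, an inhibitor that binds the ERBB kinase domain and is induced by receptor signalling, had 12.20, 10.86 and 11.96 in UWKOS1, UWKOS3 and UWKOS7, against 8.83, 10.17 and 10.59 in UWKOS2, UWKOS6 and UWKOS8. Every tumorigenic line lay above every non-tumorigenic line, and the difference of 1.81 had a 95% interval of 0.49 to 3.13, but it did not pass over all genes (adjusted p = 0.0789). It passed with the mean of its 2 probe sets (adjusted p = 0.0434) or with arrays centred on hybridization controls (adjusted p = 0.0481). In those settings 13.8% and 15.9% of all tested genes passed. It did not pass in the others that kept more than 1 line per group. There the limma adjusted p ran from 0.0575 (upper-quartile filter) to 0.176 (without UWKOS6). USP8, a deubiquitinase of internalised receptors, differed by -0.58 (adjusted p = 0.0748), with its other 3 probe sets between -0.01 and 0.12.

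**Figure D4:**
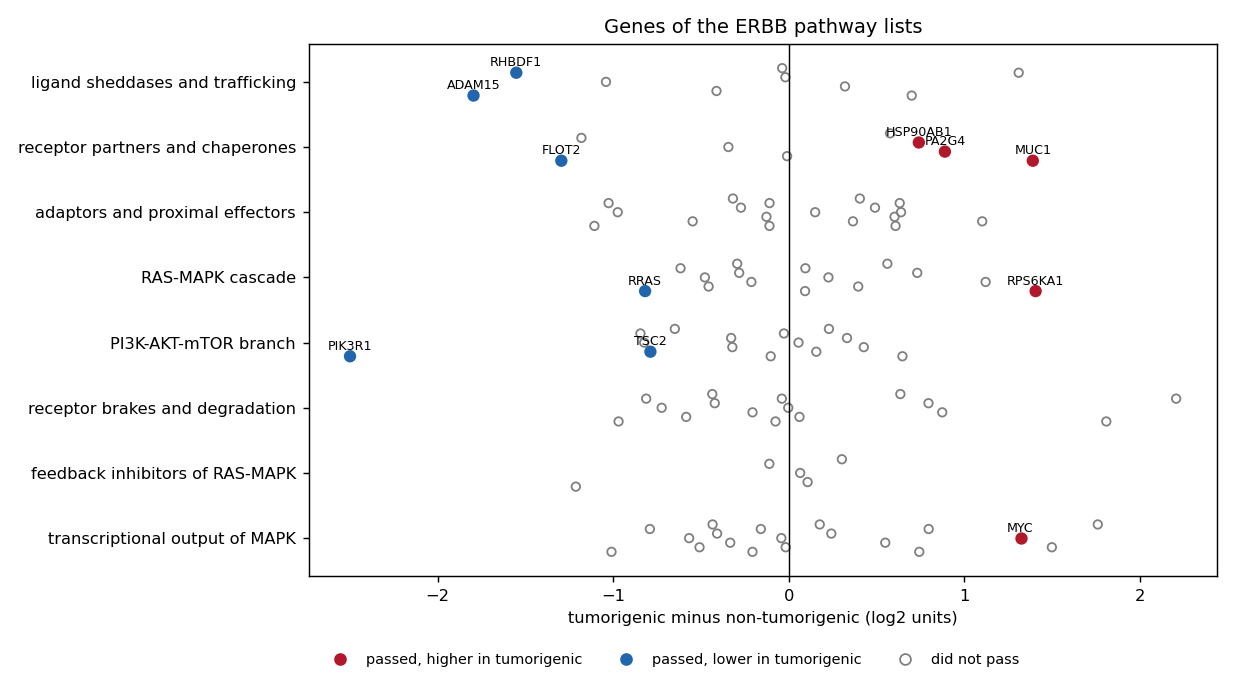
Difference in log2 signal between tumorigenic and non-tumorigenic lines for the 105 tested genes of the pathway lists, 1 point per gene and 1 row for each list with a tested gene, with vertical scatter added for legibility; filled points passed limma at an adjusted p under 0.05. The 5 genes that passed upwards and the 6 that passed downwards are spread over 5 lists.

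The last lists held genes that respond to ERK activity. Of 5 tested feedback inhibitors 0 passed with limma and 0 had an unadjusted p under 0.05; SPRY1 differed by 0.30 (adjusted p = 0.411) and the phosphatase DUSP1 by -1.21 (adjusted p = 0.191). Of 19 tested output genes 1 rose and 0 fell: MYC averaged 11.01 ± 0.19 in tumorigenic and 9.69 ± 0.37 in non-tumorigenic lines (SD, n = 3 each; adjusted p = 0.0240). The mean over the 21 measured output genes was 8.64 in UWKOS1, 7.87 in UWKOS3 and 7.90 in UWKOS7, against 8.03, 8.01 and 8.03 in UWKOS2, UWKOS6 and UWKOS8. UWKOS1 was the highest line for 7 of these 21 genes and for 4 of 8 measured feedback inhibitors, and UWKOS7 was the highest for 5 and 0. The share of all genes that were highest in UWKOS1 was not counted, so these counts are not read as a trait of that line.

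The genes behind that mean are named here after their values were seen. DUSP6, an ERK phosphatase, had 12.004 in UWKOS1, 10.27 in UWKOS3 and 10.66 in UWKOS7, against 11.17, 11.01 and 11.10 in UWKOS2, UWKOS6 and UWKOS8. ETV4, an ETS transcription factor induced by ERK, had 8.94, 6.85 and 6.04 in UWKOS1, UWKOS3 and UWKOS7, against 6.99, 5.83 and 6.62 in UWKOS2, UWKOS6 and UWKOS8. Its relative ETV5 was likewise highest in UWKOS1, at 7.64, and lowest in UWKOS7, at 5.91. UWKOS1 was highest for EREG, ERBB2, MUC1, ERRFI1, DUSP6, ETV4 and ETV5, which were gathered from members and different lists with their values in view. The share of all genes highest in UWKOS1 was not counted, so these genes are not read as a trait of that line. PHLDA1, another ERK-responsive gene, was highest in UWKOS7, at 9.08, with 8.55 in UWKOS1 and 7.38 in UWKOS3. Its levels in the non-tumorigenic lines were 6.0001 to 6.90. EGR1 was highest in UWKOS6 (9.40, against 9.02 in UWKOS1), and MYC in UWKOS7 (11.17, against 10.80 in UWKOS1). These are single arrays, and differences between single lines were not tested.

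**Figure D5:**
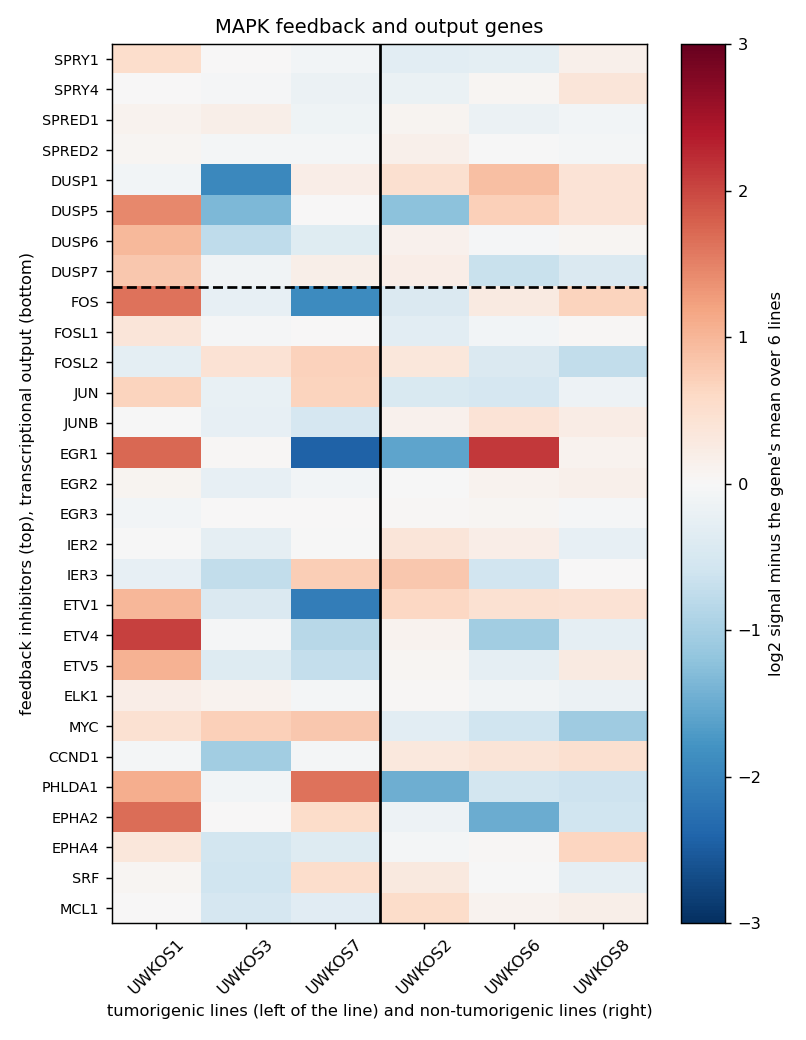
Log2 signal of the measured MAPK feedback inhibitors (above the dashed line) and output genes (below it), minus each gene's mean over the 6 lines, with tumorigenic lines left of the vertical line. UWKOS1 is the highest line for DUSP5, DUSP6, ETV4, ETV5 and EPHA2, and MYC is the gene that passed limma.

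The calls on pathway genes, like those over all genes, depended on which lines were included. With UWKOS6 left out 0 pathway genes passed limma, and 12 of 9145 genes did in all. An unadjusted p under 0.05 was held by 23 pathway genes there, against 37 with all lines. For counts by unadjusted p the share over all genes was not counted, so nothing is read from them. Without both UWKOS6 and UWKOS8, where UWKOS2 alone stood for the non-tumorigenic lines, the difference was -1.64 for ADAM15 and 0.85 for RPS6KA1. The groups did not overlap for any of the 11, so leaving lines out could not turn their direction. With UWKOS8 left out 2 of 105 pathway genes passed, ADAM15 and PA2G4, where 3.64% of all tested genes did. Leaving out UWKOS1, UWKOS3 or UWKOS2 gave 5 of 105 each, of which 3, 3 and 5 were among the 11. There 6.43%, 3.89% and 5.23% of all tested genes passed. Leaving out UWKOS7 gave 13 of 105, of which 7 were among the 11, where 14.4% of all tested genes passed. With the GAPDH ratio as a covariate 0 pathway genes passed limma (22 had an unadjusted p under 0.05, against 37 without it), and 9 of 9145 genes did in all. The part of transcript integrity in these differences was not tested further.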

How the data were processed

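Total RNA from 6 lines was hybridised to Affymetrix canine arrays, per the labels' protocols. The deposited table holds log2 signals for 43035 probe sets, 111 of them controls. The submitters' processing notes name MAS5 and no version, and the near-equal quantiles of the columns leave the authors' summary and normalization unsettled. The base was inferred: the highest log2 value corresponds to a signal of 29212.5. Values were used as deposited, and 0 columns were left out.

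A single symbol was given for 29254 of the non-control probe sets, several for 439 and none for 13231; gene identifiers brought 27680 symbols up to date with assembly UU_Cfam_GSD_1.0. Probe sets averaging at least 6.07 (21462), and the brightest such probe set of each of 9145 genes, were tested with limma 3.58.1 in R 4.3.3 (lmFit and eBayes without covariates, 3 lines against 3). P-values were adjusted by Benjamini-Hochberg, and 0.05 was the threshold. The fit was tested on simulated data. The members and lists were chosen with earlier results of these data known. The genes named are the members, up to 4 passing genes per pathway list by smallest p (2 where none passed), the 6 genes most like NRG1, and markers from 6 lists; any further gene was picked with its values in view. The number of arrays limits the precision. Alternatives were 2 other filters (none, or the upper quartile), quantile normalization, centring on the 75th percentile or on hybridization controls, an intensity trend, averaging the probe sets of a gene, the GAPDH ratio as a covariate, and lines left out. Sequences were not used here. Figures were drawn with matplotlib 3.10.9.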

Additional observations from a re-analysis of the deposited data

How the results depend on the processing

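The NRG1 difference of 3.55 moved by less than its pooled within-group SD of 0.94 under every alternative run. With 1 line left out this was fixed in advance, because dropping 1 of 3 lines cannot move a difference by more than that SD. The NRG1 difference lay between 2.69 without both UWKOS6 and UWKOS8 and 4.18 with 1 line left out (3.16 at the lowest). With lines left out its direction was fixed in advance, because the groups did not overlap. The count of pathway genes past the threshold, 11 with all lines, was 0 with the GAPDH ratio as a covariate. There 22 had an unadjusted p under 0.05, against 37 without the covariate, but the share over all genes was not counted and nothing is read from this. With 1 line left out the count ran from 0 to 13, while calls over all genes ran from 12 to 1313 of 9145. The alternatives of filter, normalization, centring, trend and probe set averaging gave 8 to 14, of which 7 to 11 were shared with the 11. Under these 6.62% to 17.1% of all tested genes passed. Over all probe sets 2580 passed; 19 did with the covariate, 9 without both lines, and 52 to 3169 with 1 line left out, 52 of them without UWKOS6, 437 without UWKOS8, 647 without UWKOS3, 1141 without UWKOS1 and 1343 without UWKOS2. Without both lines the spread around UWKOS2 was taken from the tumorigenic lines. Centring on hybridization controls gave a median gene difference of 0.20, against 0.03 as deposited, and turned the split of probe sets to 2551 higher and 761 lower, against 1563 and 1017 as deposited. Under it the differences of TGFA, ERBB4 and ERBB2 were -0.02, -0.05 and -0.0043, all below that median. BTC turned to -0.07 with 75th percentile centring and EGFR to -0.06 with the covariate. Of the members' differences 114 values moved by less than the spread between lines and 6 by more. Many of the 114 were fixed in advance. Leaving out 1 of 3 lines cannot move a difference by more than that spread, and averaging changes nothing for a member with 1 probe set. EREG at 0.77 without UWKOS1 and HBEGF at -0.41 without UWKOS7 are among the 114, so that count is not read as stability. Named pathway genes lost their call in 79 comparisons and gained it in 4, with 0 turning direction. Leaving lines out could not turn the direction of a gene whose groups did not overlap. No paired analysis was possible because the labels give no replicate numbers shared between the groups.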

Other observations

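The pattern of EREG over the lines was looked up after its values were seen. The 6 genes most like it among 9144 others were PPP2R5E, ZNF800, CREB1, C27H12orf4, ADCK2 and SEM1, with Pearson's r of 0.978 to 0.991 over 6 lines, and 150 genes had an r above 0.9. Their values differed far less than those of EREG: CREB1, a transcription factor activated by cyclic AMP and growth factor signals, had 8.68, 8.42 and 7.79 in UWKOS1, UWKOS3 and UWKOS7, against 7.95, 8.001 and 7.99 in UWKOS2, UWKOS6 and UWKOS8. SPP1, osteopontin, had 9.76 in UWKOS1 and lay between 2.79 and 3.30 in the other lines, so this line stood apart in a secreted bone matrix protein as well as in EREG. LRIG3, a member of the family of LRIG proteins that includes a brake on ERBB receptors, had 5.90, 7.41 and 9.09 in UWKOS1, UWKOS3 and UWKOS7, against 3.47, 6.59 and 5.72 in UWKOS2, UWKOS6 and UWKOS8 (limma adjusted p = 0.202). Among the tumorigenic lines its order was the reverse of that of EREG. The other values here are of single arrays and were not tested.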
